A study of Mus musculus with 30 samples.

Results

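The genes described here are 47 genes of the cell division cycle and of DNA replication, taken by name: the proteins that license and unwind replication origins, the enzymes of DNA synthesis, the cyclins and kinases that drive the cycle, its brakes, and the machinery of mitosis. Of the 47 genes, 46 had a probe set that named them alone, among 19938 genes measured this way. Ccnb1, cyclin B1, had no such probe set and has no value here. Levels were read on Affymetrix Mouse Gene 1.0 ST microarrays and are log2 values, so a difference of 1 is a 2-fold change.

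The 30 arrays formed 10 groups of 3 biological replicates. Mouse embryonic stem (ES) cells and the induced pluripotent stem (iPS) cell lines ST5 and ST8, all of strain C57BL/6x129SvJae and each iPS line 1 clone, were taken at day 0, sorted as Sox2bright undifferentiated cells, and at day 5 of endoderm differentiation, sorted as ckit+/Sox2dim cells, with unamplified RNA on 18 arrays. The other 12 arrays carried amplified RNA from ES cells at day 0, ES cells at day 5, and 2 sorted populations of E8.25 Swiss Webster embryos: foregut endoderm (ENDM1+/Epcam+/SSlo) and Epcam+ cells negative for ENDM1. The labels do not say whether the amplified and the unamplified ES arrays share RNA, so levels were compared within each labelling only. For the same reason, agreement between the 2 labellings of ES cells cannot be taken as independent. The gate differed between the days, so differentiation and sorting cannot be told apart. In bulk RNA, fewer cells of a type and less RNA per cell cannot be told apart either.

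The arrays carried the markers their labels call for. Over the unamplified arrays the mean level of 8 pluripotency genes lay between 10.03 and 10.38 at day 0 and between 5.76 and 7.03 at day 5, and that of 8 definitive endoderm genes between 5.54 and 6.86 and between 8.18 and 9.58. In amplified ES the pluripotency genes read 9.85 to 9.93 at day 0 and 6.40 to 7.06 at day 5. Foregut cells read 7.73 to 7.86 on 8 foregut genes and ENDM1-negative cells 6.28 to 6.57. Amplified ES at day 5 read 7.49 to 8.09 on the same list, which thus did not set foregut apart from these cells. On the definitive endoderm genes amplified ES at day 5 read 7.67 to 8.52 and foregut 7.21 to 7.47. At day 5, 3 arrays stood apart from the other replicates of their groups, as was seen after the values were known: ES replicate 1, ST8 replicate 2 and amplified ES replicate 1. Pou5f1, a pluripotency factor, read 8.41, 9.64 and 9.61 on the ES replicates 1, 2 and 3, 10.48, 7.25 and 10.43 on the ST8 replicates and 7.72, 8.92 and 8.82 on the amplified ES replicates. Sox17, an endoderm factor, read 9.35, 7.15 and 7.28, 7.40, 9.30 and 7.23 and 7.90, 6.24 and 6.10 in the same order. These 3 arrays were thus the lowest of their groups for Pou5f1 and the highest for Sox17, while the ST5 day 5 replicates lay close together for both (8.36, 8.40 and 8.29 for Pou5f1 and 8.99, 8.82 and 8.69 for Sox17). For called results named below, leaving these 3 arrays out together could turn the direction, end the call or move the value by over 1.5 times. Where it did, the value or the adjusted p without them, or without the array of its group, is given. For results that were not called, this is given for some genes only.

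As background, a cell enters the cycle when D-type cyclins with Cdk4 or Cdk6 phosphorylate the retinoblastoma protein and release E2F factors, and cyclin E with Cdk2 then starts S phase. Origins are licensed in G1, when the origin recognition complex, Cdc6 and Cdt1 load the Mcm2-7 helicase, which Cdc45 and the GINS complex switch on. Cyclin B with Cdk1, the Aurora and Polo kinases and the checkpoint kinases carry the cell through mitosis. Mouse pluripotent cells are known for rapid division, a short G1 phase and high cyclin E activity, and they lengthen G1 as they differentiate.

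Genes of S phase are known for E2F sites near their start and genes of mitosis for CHR elements beside CCAAT boxes, so the promoter sequences of 7 genes are shown, each being the 180 bases before the RefSeq start site on the gene's strand, build GRCm38.p6. Capitals mark matches on either strand to the E2F letters TTTCCCGC, TTTCGCGC, TTTGCCGC or TTTGGCGC, to the CHR letters TTTGAA or TTCGAA, or to CCAAT, and neighbouring or overlapping matches run together. Mcm5 (chr8:75109329-75109508, plus strand), Mcm6 (chr1:128359706-128359885, minus strand) and Orc1 (chr4:108579274-108579453, plus strand) stand for the licensing genes with E2F letters. Cdk1 (chr10:69352913-69353092, minus strand), Top2a (chr11:99024190-99024369, minus strand) and Mki67 (chr7:135716380-135716559, minus strand) stand for the mitosis genes with CHR and CCAAT letters. Cdk4 (chr10:127063355-127063534, plus strand), a member that rose at day 5, has none of these letters here.
Mcm5: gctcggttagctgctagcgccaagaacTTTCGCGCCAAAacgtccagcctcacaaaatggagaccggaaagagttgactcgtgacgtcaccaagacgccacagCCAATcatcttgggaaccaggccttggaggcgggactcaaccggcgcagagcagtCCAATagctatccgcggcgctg
Mcm6: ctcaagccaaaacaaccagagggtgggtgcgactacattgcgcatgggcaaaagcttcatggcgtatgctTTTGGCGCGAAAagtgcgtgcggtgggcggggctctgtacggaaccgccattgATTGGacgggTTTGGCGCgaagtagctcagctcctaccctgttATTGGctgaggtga
Orc1: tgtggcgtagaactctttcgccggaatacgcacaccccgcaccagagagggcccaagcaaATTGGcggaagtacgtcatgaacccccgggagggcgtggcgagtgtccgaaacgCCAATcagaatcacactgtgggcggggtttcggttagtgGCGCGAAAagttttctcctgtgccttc
Cdk1: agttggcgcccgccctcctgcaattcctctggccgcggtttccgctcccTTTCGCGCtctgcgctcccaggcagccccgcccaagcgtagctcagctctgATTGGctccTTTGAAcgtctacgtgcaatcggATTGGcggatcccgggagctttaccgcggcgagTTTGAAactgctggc
Top2a: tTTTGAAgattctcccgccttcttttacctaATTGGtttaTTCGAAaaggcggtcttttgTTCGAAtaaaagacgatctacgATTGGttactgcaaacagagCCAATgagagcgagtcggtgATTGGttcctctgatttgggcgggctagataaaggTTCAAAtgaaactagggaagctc
Mki67: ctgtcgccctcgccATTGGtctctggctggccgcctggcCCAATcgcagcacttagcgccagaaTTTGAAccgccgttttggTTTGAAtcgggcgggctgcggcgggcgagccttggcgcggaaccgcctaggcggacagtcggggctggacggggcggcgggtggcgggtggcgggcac
Cdk4: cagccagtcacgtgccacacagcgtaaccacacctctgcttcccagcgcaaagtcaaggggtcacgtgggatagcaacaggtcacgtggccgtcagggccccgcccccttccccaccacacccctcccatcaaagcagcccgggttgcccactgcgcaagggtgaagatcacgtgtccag

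The RefSeq table held a promoter window, 250 bases before to 50 after the start, for 36 of the 47 genes and for 27025 genes in all; 3 of the 36 had several windows, and the first in the table was counted. E2F letters stood in 11 of the 36 windows (30.6%), against 2.32% of all windows, and 7 of these 11 belonged to the 10 licensing genes with a window (70%). CHR letters stood in 12 of 36 (33.3%), against 19.4% of all windows, and in 9 of the 11 mitosis windows (81.8%, Ccnb1 included). CCAAT stood in 26 of 36 (72.2%), against 37.9% of all windows, in 10 of the 11 mitosis windows (90.9%) and in 8 of the 10 licensing windows (80%). The first windows of the G1 genes Ccnd3, Cdk4 and Cdk6 held none of the 3 motifs, while the other window of Ccnd3 held CCAAT. Letters in a window are a description and do not show that a factor binds there.

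**Figure D1:**
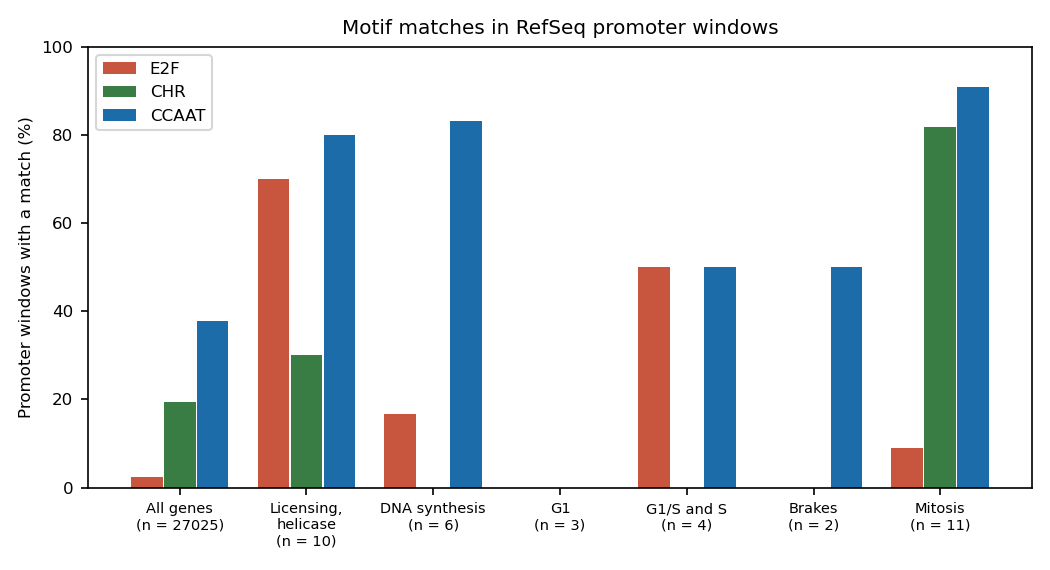
Share of promoter windows (300 bases, y axis in percent) with a match to the E2F, CHR or CCAAT letters, for the windows of all 27025 genes and of the cell cycle and replication genes by role. The roles are licensing and helicase, DNA synthesis, G1, G1/S and S phase, brakes, and mitosis. E2F matches are at 70% in the licensing genes and CHR matches at 81.8% in the mitosis genes, against 2.32% and 19.4% of all windows.

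The first question was how these genes stood in endoderm at day 5 against the undifferentiated cells of the same line. Most of them were lower at day 5 in every line. In ES cells 36 of 46 were called lower and 3 higher (limma, adjusted p under 0.05 over all genes), where 19.7% of all genes were called lower and 18.9% higher. In ST5 the counts were 36 and 3, against 24.8% and 23.2% of all genes, and in ST8 33 and 2, against 19.5% and 21%. In amplified ES RNA 30 were called lower and 3 higher, against 13.8% and 13%. Among the 9969 genes with a mean level at or above the median gene, the share called lower was 32.8% in ES, 35.4% in ST5, 30.3% in ST8 and 23.3% in amplified ES.

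The median difference of the 46 genes was -0.43 in ES, -0.55 in ST5, -0.39 in ST8 and -0.40 in amplified ES, while that of all genes was 0.02, -0.04, -0.01 and -0.02. Across the 3 unamplified lines 30 genes were called lower in each, 26 of them also in amplified ES, and 2 genes, Cdk4 and Cdkn1b, were called higher in each. The share of all genes called lower in each line was not counted. It cannot exceed the 19.5% called lower in ST8 or, with amplified ES, the 13.8% called lower there. Gins2, Mki67 and Rb1 were called in none of the 3 lines.

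**Figure D2:**
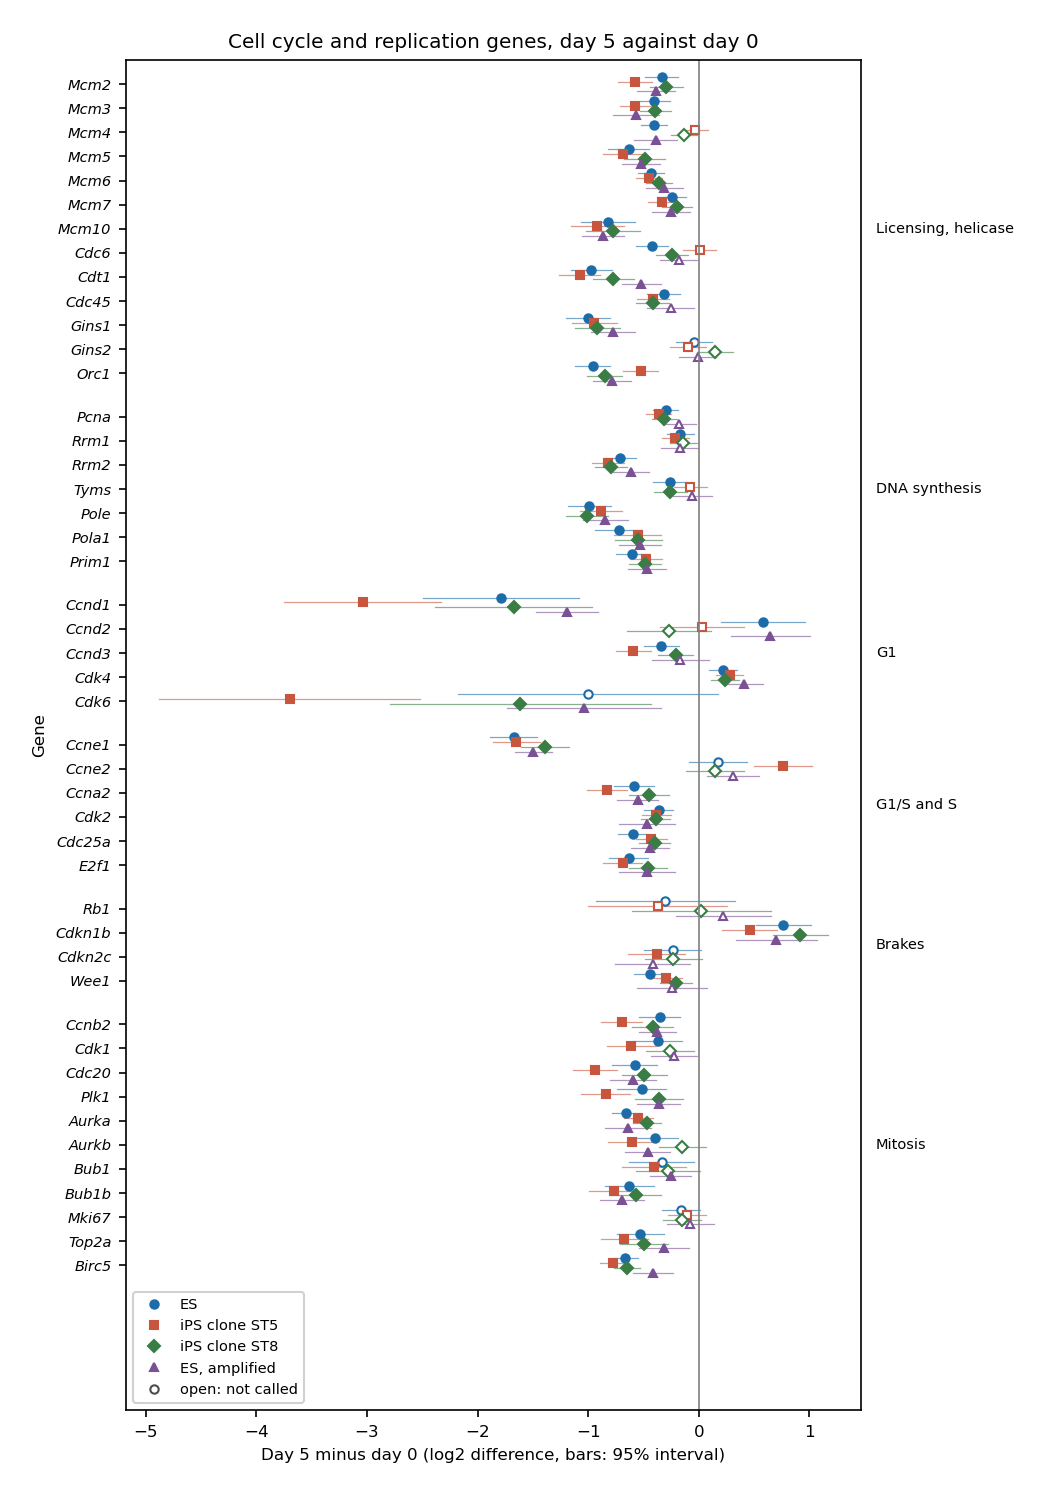
Difference between day 5 and day 0 (x axis, log2) of the 46 measured genes, grouped by role, for ES, ST5, ST8 and amplified ES; points are estimates from 3 arrays against 3, bars 95% intervals, and open points were not called. Most points lie left of 0, with medians of -0.43, -0.55, -0.39 and -0.40, and Ccnd1, Ccne1 and Cdk6 lie farthest left.

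Licensing factors and the replicative helicase were among the genes that fell. Of 13, 12 were called lower in ES, 10 in ST5, 11 in ST8 and 10 in amplified ES, with median differences of -0.42, -0.53, -0.39 and -0.39, and none was called higher. Gins1, a subunit of the GINS complex that activates the helicase, read 8.72, 8.51 and 8.61 in ES at day 0 and 7.68, 7.59 and 7.56 at day 5. In ST5 Gins1 read 8.79, 8.58 and 8.91, then 7.74, 7.89 and 7.82, and in ST8 8.78, 8.76 and 8.64, then 8.001, 7.68 and 7.75. All 9 day 5 arrays of Gins1 lay below all 9 day 0 arrays. The fall was 0.999 ± 0.09 (SE; limma, adjusted p = 3.89e-07) in ES, 0.94 (adjusted p = 4.18e-07) in ST5 and 0.92 (adjusted p = 9.08e-07) in ST8, each difference here and below resting on 3 arrays against 3.

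Cdt1, which loads the Mcm2-7 helicase on origins, read 9.91, 9.61 and 9.73 in ES at day 0 and 8.64, 8.87 and 8.82 at day 5. It read 9.62, 9.64 and 9.76 at day 0 and 8.496, 8.64 and 8.64 at day 5 in ST5, and 9.68, 9.66 and 9.63 at day 0 and 8.87, 8.78 and 9.01 at day 5 in ST8. The days did not overlap in any line, and Cdt1 fell by 0.97 ± 0.09 in ES (limma, adjusted p = 1.91e-07), 1.08 ± 0.09 in ST5 (adjusted p = 3.55e-08) and 0.77 ± 0.09 in ST8 (adjusted p = 2.1e-06). Mcm10, which helps assemble the active fork, read 9.32, 9.18 and 9.28 in ES at day 0 and 8.30, 8.498 and 8.51 at day 5. In ST5 Mcm10 went from 9.03, 9.07 and 9.12 to 8.14, 8.18 and 8.16, and in ST8 from 9.21, 9.20 and 9.15 to 8.67, 8.03 and 8.54. The lowest day 5 array of Mcm10 was the ST8 replicate that stands apart, and no day 5 array reached the day 0 range. Mcm10 fell by 0.82 ± 0.12 in ES (limma, adjusted p = 2.34e-05), 0.92 in ST5 (adjusted p = 4.73e-06) and 0.77 in ST8 (adjusted p = 4.13e-05).

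The Mcm2-7 subunits, which form the helicase ring, had differences closer to 0. Mcm5, whose promoter letters are shown above, fell by 0.63, 0.69 and 0.49 in ES, ST5 and ST8, and Mcm6 by 0.43, 0.45 and 0.36. Mcm2 fell by 0.34, 0.58 and 0.29, Mcm3 by 0.40, 0.57 and 0.39, and Mcm7 by 0.25, 0.33 and 0.20. Leaving out ST8 day 0 replicate 3 or ST8 day 5 replicate 2 ended the call of Mcm7 in ST8 (adjusted p = 0.0641 and 0.0953). The sixth subunit, Mcm4, passed the test in ES (-0.40) but not elsewhere among the 3 lines, with -0.03 in ST5 and -0.13 in ST8, and it is taken up with the comparison of the lines. Gins2, a GINS subunit like Gins1, had differences of -0.04, -0.10 and 0.15 and was called in no line. Without the arrays that stand apart they were 0.03 in ES and 0.21 in ST8, the latter then called (adjusted p = 0.0232). Cdc45, the helicase's other partner, fell by 0.32, 0.41 and 0.42.

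Most enzymes of DNA synthesis and nucleotide supply fell. Of 7, 7 were called lower in ES, 6 in ST5, 6 in ST8 and 4 in amplified ES, with medians of -0.60, -0.48, -0.49 and -0.47. Pole, the catalytic subunit of leading strand DNA polymerase epsilon, read 9.30, 9.05 and 9.27 in ES at day 0 and 8.15, 8.28 and 8.22 at day 5. It read 9.14, 9.14 and 9.29 at day 0 and 8.17, 8.40 and 8.34 at day 5 in ST5, and 9.39, 9.33 and 9.30 at day 0 and 8.42, 8.14 and 8.43 at day 5 in ST8. No array of Pole at day 5 came within the day 0 range of its line. Its fall was 0.99 ± 0.09 in ES (limma, adjusted p = 2.64e-07), 0.88 in ST5 (adjusted p = 5.14e-07) and 1.01 in ST8 (adjusted p = 1.81e-07).

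Rrm2, the regulated subunit of the ribonucleotide reductase that makes deoxynucleotides, fell by 0.71, 0.82 and 0.80 in the 3 lines. Rrm1, the large subunit of the same enzyme, differed by -0.17, -0.21 and -0.14; it was called in ES and ST5, and the ES call did not hold once day 0 replicate 1 or 3 or day 5 replicate 1 or 3 was left out (adjusted p = 0.0881, 0.107, 0.0978 and 0.0589). Pola1 and Prim1, which lay down primers, fell by 0.73 and 0.60 in ES, 0.55 and 0.48 in ST5, and 0.55 and 0.49 in ST8. Pcna, the sliding clamp, fell by 0.30, 0.36 and 0.31. Pcna has another probe set at a near-identical mean level, so its values could mix the gene with a close copy and are uncertain.

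Cyclins and kinases of G1 did not move together. Ccnd1, cyclin D1, read 9.85, 9.98 and 9.92 in ES at day 0 and 7.63, 8.40 and 8.35 at day 5. In ST5 it read 9.97, 9.84 and 9.82 at day 0 and 6.64, 7.01 and 6.87 at day 5, and in ST8 9.88, 9.77 and 9.94 at day 0 and 8.82, 7.001 and 8.76 at day 5. Every day 5 array was below every day 0 array, and at day 5 ES replicate 1 and ST8 replicate 2 were the lowest of their groups and nearest to ST5. Ccnd1 fell by 1.79 ± 0.33 in ES (limma, adjusted p = 0.000382), 3.04 ± 0.33 in ST5 (adjusted p = 1.13e-06) and 1.67 ± 0.33 in ST8 (adjusted p = 0.000624). Without the arrays that stand apart the difference was -1.54 in ES and -1.08 in ST8.

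Cdk6, a partner kinase of the D cyclins, read 8.63, 8.77 and 8.78 in ES at day 0 and 6.62, 8.36 and 8.20 at day 5. It read 8.83, 8.73 and 8.83 at day 0 and 5.18, 5.06 and 5.05 at day 5 in ST5, and 8.96, 8.86 and 8.84 at day 0 and 8.15, 5.37 and 8.29 at day 5 in ST8. Its day 5 arrays thus lay between 5.05 and 5.37 in ST5 and on ST8 replicate 2, and at 8.15 to 8.36 on 4 of the other 5 arrays, with ES replicate 1 between them. The difference was -1.001 ± 0.56 in ES (limma, adjusted p = 0.181), -3.70 in ST5 (adjusted p = 3.04e-05) and -1.61 in ST8 (adjusted p = 0.028). Without the arrays that stand apart it was -0.45 in ES (adjusted p = 0.000154) and -0.66 in ST8 (adjusted p = 2.77e-06). In ST8 the call was lost without day 5 replicate 2 alone (adjusted p = 0.123) and without day 0 replicate 1, 2 or 3 (adjusted p = 0.0698, 0.0609 and 0.0598). Cdk6 had the widest spread between replicates of all 46 genes at day 5, with an SD of 0.96 in ES and 1.65 in ST8, where the median SD of the genes was 0.10 and 0.15.

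Ccnd2, cyclin D2, read 9.23, 9.47 and 9.55 in ES at day 0 and 9.53, 10.16 and 10.29 at day 5. In ST5 Ccnd2 read 9.54, 9.54 and 9.38 at day 0 and 9.45, 9.52 and 9.57 at day 5, and in ST8 9.40, 9.56 and 9.65 at day 0 and 9.36, 8.86 and 9.58 at day 5. The days overlapped in each of the 3 lines. Its difference was 0.58 ± 0.18 in ES (limma, adjusted p = 0.0167), 0.03 in ST5 (adjusted p = 0.91) and -0.27 in ST8 (adjusted p = 0.277). For ES it was no longer called with day 0 replicate 1 left out (adjusted p = 0.0791) or day 5 replicate 2 or 3 left out (adjusted p = 0.0696 and 0.0949). Without the arrays that stand apart the difference was -0.06 in ST8 (adjusted p = 0.69).

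Ccnd3, cyclin D3, read 7.84, 7.94 and 7.70 in ES at day 0 and 7.42, 7.54 and 7.501 at day 5. It read 7.97, 7.88 and 7.83 at day 0 and 7.29, 7.34 and 7.26 at day 5 in ST5, and 7.69, 7.72 and 7.64 at day 0 and 7.54, 7.33 and 7.55 at day 5 in ST8. The days did not overlap in any line, and ST8 replicate 2 was again the lowest of its group. Ccnd3 fell by 0.34 (limma, adjusted p = 0.00144) in ES, 0.59 (adjusted p = 4.79e-06) in ST5 and 0.21 (adjusted p = 0.0338) in ST8. The ST8 call was lost without day 5 replicate 2 (-0.14, adjusted p = 0.171) and without day 0 replicate 1 or 2 (adjusted p = 0.0783 and 0.0995).

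Cdk4, the other partner kinase of the D cyclins, read 11.48, 11.61 and 11.58 in ES at day 0 and 11.85, 11.74 and 11.74 at day 5. It read 11.65, 11.61 and 11.61 at day 0 and 11.94, 11.90 and 11.86 at day 5 in ST5, and 11.60, 11.53 and 11.58 at day 0 and 11.81, 11.87 and 11.74 at day 5 in ST8. All day 5 arrays were above the day 0 arrays of their line, opposite to most of the genes. Cdk4 rose by 0.22 ± 0.06 in ES (limma, adjusted p = 0.00657), 0.28 in ST5 (adjusted p = 0.00079) and 0.24 in ST8 (adjusted p = 0.00371). With every array set to a common median the ES rise was 0.15 (adjusted p = 0.0823), and with the 2 ES groups fitted alone its adjusted p was 0.0517.

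**Figure D3:**
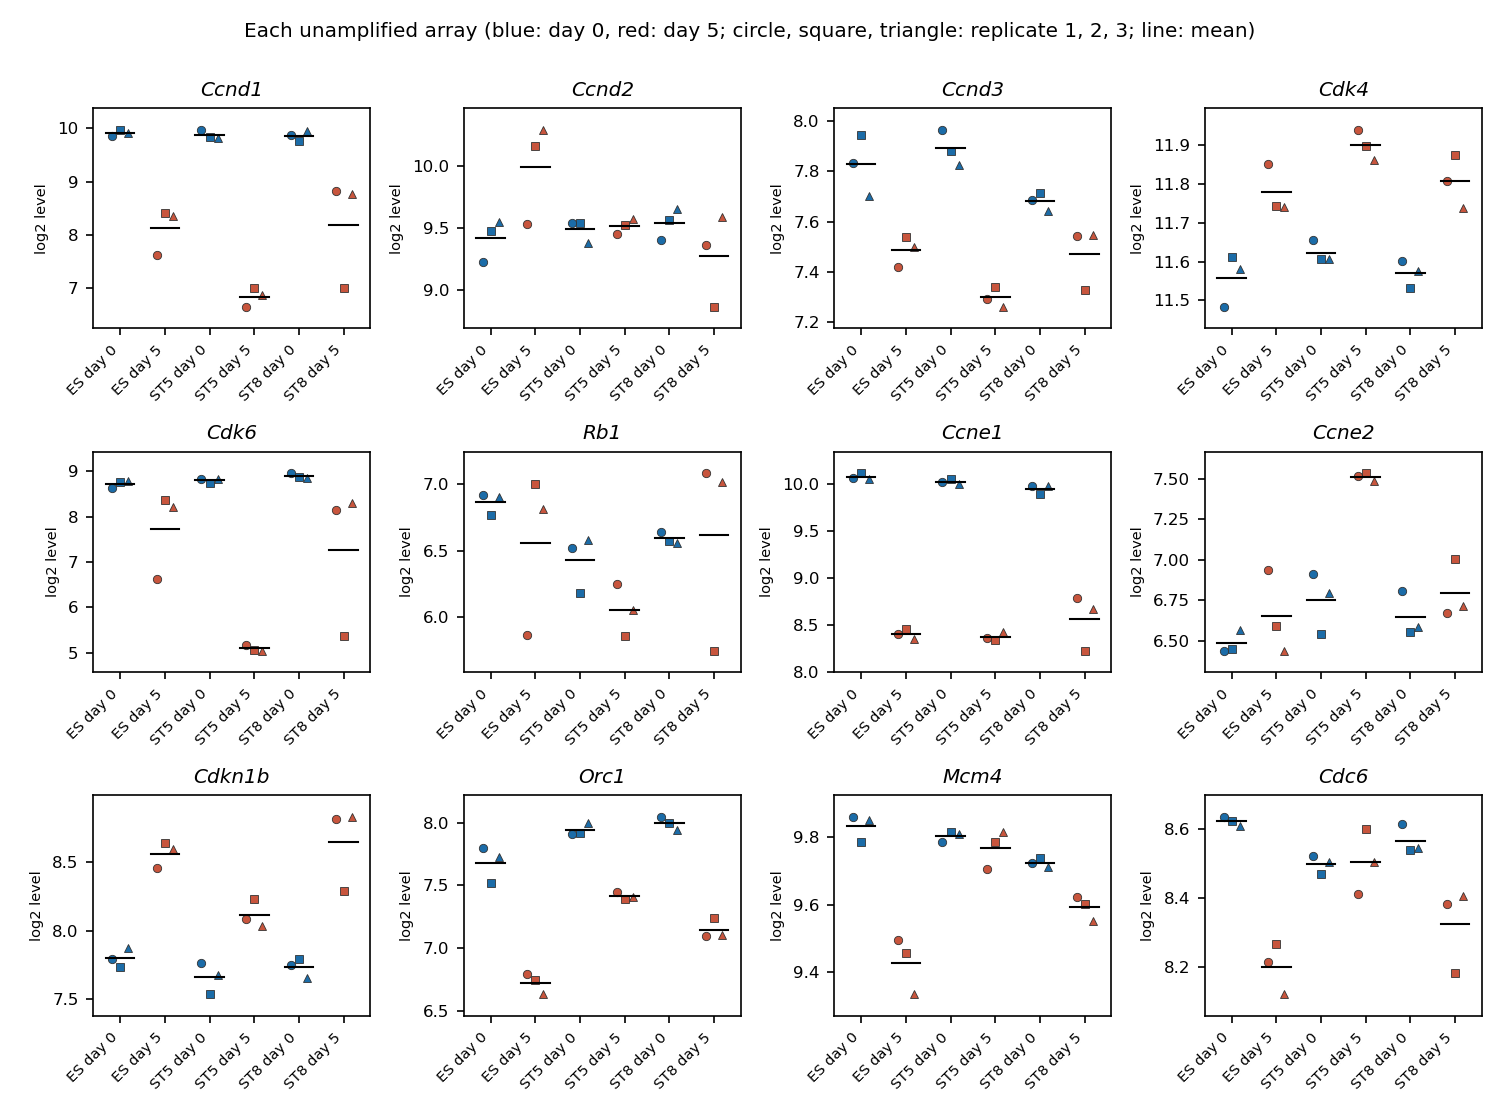
Level (y axis, log2) of 12 cell cycle and replication genes on each of the 18 unamplified arrays, day 0 in blue and day 5 in red; circles, squares and triangles are replicates 1, 2 and 3 and lines are group means. Cdk6 and Ccnd1 spread widely at day 5, where ES replicate 1 and ST8 replicate 2 are low, while the Ccne1 arrays fall into separate ranges at day 0 and day 5 in every line.

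Genes that take the cell into S phase fell, apart from Ccne2. Of 6, 5 were called lower in each of ES, ST5, ST8 and amplified ES. Ccne1, cyclin E1, read 10.06, 10.11 and 10.05 in ES at day 0 and 8.40, 8.46 and 8.35 at day 5. It read 10.02, 10.05 and 9.997 at day 0 and 8.36, 8.34 and 8.42 at day 5 in ST5, and 9.98, 9.89 and 9.98 at day 0 and 8.79, 8.23 and 8.67 at day 5 in ST8. The gap between the days was more than 1 log2 unit in each line, and no arrays overlapped. Ccne1 fell by 1.67 ± 0.10 in ES (limma, adjusted p = 2.04e-09), 1.65 ± 0.10 in ST5 (adjusted p = 1.79e-09) and 1.39 ± 0.10 in ST8 (adjusted p = 1.63e-08).

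Ccne2, cyclin E2, did not follow Ccne1. It read 6.44, 6.45 and 6.57 in ES at day 0 and 6.93, 6.59 and 6.44 at day 5, 6.91, 6.54 and 6.79 at day 0 and 7.52, 7.53 and 7.48 at day 5 in ST5, and 6.81, 6.55 and 6.58 at day 0 and 6.67, 7.002 and 6.71 at day 5 in ST8. The days overlapped in ES and ST8 and were apart in ST5, where Ccne2 rose by 0.76 ± 0.12 (limma, adjusted p = 6.59e-05). The differences of Ccne2 in ES and ST8 were 0.17 and 0.15. In both, the array that stands apart was the highest at day 5. The other day 5 arrays, at 6.59 and 6.44 in ES and 6.67 and 6.71 in ST8, were near those of day 0. E2f1, an activator of S phase genes, fell by 0.63, 0.69 and 0.46 in the 3 lines, and Ccna2, the cyclin of S phase and G2, by 0.58, 0.83 and 0.45. Cdc25a, the phosphatase that activates Cdk2, fell by 0.59, 0.43 and 0.40, and Cdk2 itself by 0.36, 0.39 and 0.39.

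Among the 4 brakes, Cdkn1b rose and the others did not. Cdkn1b, the Cdk inhibitor p27, read 7.79, 7.73 and 7.87 in ES at day 0 and 8.46, 8.64 and 8.60 at day 5. It read 7.76, 7.53 and 7.67 at day 0 and 8.09, 8.23 and 8.03 at day 5 in ST5, and 7.75, 7.79 and 7.65 at day 0 and 8.82, 8.29 and 8.84 at day 5 in ST8. All 9 day 5 arrays were above all 9 day 0 arrays. Cdkn1b rose by 0.76 ± 0.12 in ES (limma, adjusted p = 6.06e-05), 0.46 in ST5 (adjusted p = 0.0035) and 0.92 in ST8 (adjusted p = 8.61e-06). The gene's other probe set gave 0.88, 0.60 and 1.06.

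Rb1, the retinoblastoma protein that holds E2F, read 5.87, 7.002 and 6.81 in ES at day 5 and 7.08, 5.75 and 7.01 in ST8, against 6.92, 6.77 and 6.90 in ES and 6.64, 6.58 and 6.56 in ST8 at day 0. The arrays that stand apart were the lowest of their day 5 groups, and Rb1 was called in no line (-0.30, -0.37 and 0.02). Without those arrays its difference was 0.04 in ES (adjusted p = 0.805), where the sign turned, and 0.46 in ST8 (adjusted p = 0.0044), which was then called. In ST5, which lost no array, the difference stayed -0.37, but its adjusted p was 0.00626 in that fit. Wee1, which holds back Cdk1, fell by 0.44, 0.30 and 0.21, and its ST8 call was lost without day 0 replicate 2 (adjusted p = 0.095) or day 5 replicate 2 (adjusted p = 0.118). Cdkn2c, the inhibitor p18, differed by -0.24, -0.38 and -0.23; its mean level over the unamplified arrays, 3.34, was far below the array medians of 5.50 to 5.57, and its ST5 call was lost without ST5 day 0 replicate 3 (adjusted p = 0.0565) or day 5 replicate 2 (adjusted p = 0.0806).

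Genes of mitosis were lower at day 5. Of 11, 9 were called lower in ES, 10 in ST5, 7 in ST8 and 9 in amplified ES, with medians of -0.52, -0.67, -0.42 and -0.37, and none was called higher. Birc5, the survivin subunit of the chromosomal passenger complex, fell by 0.66, 0.78 and 0.65 in ES, ST5 and ST8. Cdc20, the activator of the anaphase-promoting complex, fell by 0.58, 0.94 and 0.49. The kinase Bub1b, part of the spindle checkpoint, fell by 0.63, 0.77 and 0.57. Top2a, which untangles sister chromatids, fell by 0.53, 0.67 and 0.496, and Aurka, the centrosomal Aurora kinase, by 0.66, 0.55 and 0.47. The other probe set of Top2a, at a mean level of 4.78, gave -0.61, -0.70 and -0.80. In amplified ES that probe set gave -0.46 without a call (limma, adjusted p = 0.168). The Polo kinase Plk1 fell by 0.52, 0.84 and 0.36, the ST8 call being lost without day 5 replicate 2 (adjusted p = 0.056). With the 3 arrays that stand apart left out together the ST8 difference of Plk1 was -0.22 (adjusted p = 0.0214). Bub1, a checkpoint kinase that works with Bub1b, differed by -0.34 in ES without a call (adjusted p = 0.0652) and by -0.22 with one (adjusted p = 0.027) when those arrays were left out.

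Mki67, the proliferation antigen Ki-67, was called in none of the 3 lines. It read 9.51, 9.41 and 9.61 in ES at day 0 and 9.21, 9.44 and 9.42 at day 5, 9.44, 9.35 and 9.47 at day 0 and 9.22, 9.29 and 9.42 at day 5 in ST5, and 9.58, 9.62 and 9.51 at day 0 and 9.49, 9.31 and 9.47 at day 5 in ST8. The days overlapped in ES and ST5 but not in ST8. For Mki67 the arrays that stand apart were the lowest day 5 arrays of ES and ST8. Its differences of -0.16, -0.11 and -0.15 had adjusted p (limma) of 0.137, 0.288 and 0.162. As shown above, its promoter holds CHR and CCAAT letters like those of Cdk1 and Top2a. Cdk1, the kinase of mitotic entry, fell by 0.37 in ES and 0.61 in ST5. In ST8 it differed by -0.26 without a call, and its lowest day 5 array was the one that stands apart. Leaving out day 5 replicate 1 ended its call in ES (adjusted p = 0.0506).

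Markers of another cell type moved with the day. Of 9 fibroblast genes, 8 were called lower at day 5 in ES, 8 in ST5, 9 in ST8 and 8 in amplified ES. Their mean level ran from 7.51 to 8.12 over the unamplified day 0 arrays and from 5.04 to 5.57 at day 5, and from 6.57 to 6.78 and 5.21 to 5.43 in amplified ES. The part of these cells in the day 5 differences was not tested.

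Amplified ES RNA, which may not be independent of the unamplified ES RNA, gave the same directions for Ccne1, Ccnd1 and Cdkn1b. Ccne1 read 8.96, 8.78 and 8.85 at day 0 and 7.34, 7.33 and 7.43 at day 5 and fell by 1.497 ± 0.08 (limma, adjusted p = 2.21e-08). Ccnd1 read 8.59, 8.60 and 8.56 at day 0 and 7.08, 7.55 and 7.55 at day 5 and fell by 1.19 ± 0.13 (adjusted p = 1.95e-05). Neither gene's arrays overlapped between the days. Cdkn1b rose by 0.70 ± 0.17 (limma, adjusted p = 0.00676), from 7.27, 7.19 and 7.33 to 7.68, 8.01 and 8.20. Ccnd2 rose by 0.64 (adjusted p = 0.0103), from 8.20, 8.51 and 8.48 to 8.69, 9.18 and 9.25, and here the days did not overlap. Cdk6 read 8.10, 8.12 and 8.10 at day 0 and 6.01, 7.74 and 7.45 at day 5, lowest again on the array that stands apart, and fell by 1.04 (adjusted p = 0.0282). That call was lost without amplified ES day 0 replicate 1, 2 or 3 (adjusted p = 0.0681, 0.0713 and 0.0668), and without the array that stands apart the difference was -0.51. Without that array the falls of Mcm7 (-0.25 with it, -0.23 without), Bub1 (-0.25 and -0.17) and Top2a (-0.31 and -0.23) were no longer called (adjusted p = 0.0852, 0.17 and 0.148), and Rb1, at 0.22 with it, was higher by 0.52 (adjusted p = 0.0074).

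The next question was whether the iPS clones differed from ES cells. At day 0 few of these genes passed the test. Between ST5 and ES 0 of 46 were called by limma, against 3.22% of all genes, and 3 had an unadjusted p under 0.05. Between ST8 and ST5 0 were called, against 0.0652% of all genes, and 1 had an unadjusted p under 0.05. Between ST8 and ES 1 was called, against 3.55% of all genes: Orc1, the largest subunit of the origin recognition complex, at 8.05, 7.999 and 7.95 in ST8 and 7.80, 7.52 and 7.73 in ES. Orc1 was higher in ST8 by 0.32 ± 0.07 (adjusted p = 0.0257), and the call was lost on leaving out any 1 of the 6 arrays except ES replicate 1 (adjusted p from 0.0526 to 0.129).

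At day 5 ST5 and ES differed at some of the genes. Of 46, 5 were called higher in ST5 and 9 lower (limma), against 11.6% and 11.8% of all genes. The 5 higher are 10.9% of the members, close to the background, and the 9 lower 19.6%. The split was 10 higher and 7 lower with a common median and 5 and 15 after a further quantile normalization, and without ES day 5 replicate 2 it was 5 and 2. Ccne2 was higher in ST5 by 0.86 ± 0.12 (adjusted p = 0.000531), Orc1 by 0.69 ± 0.07 (adjusted p = 6.02e-05) and Mcm4 by 0.34 ± 0.06 (adjusted p = 0.00115). Orc1 read 7.45, 7.39 and 7.41 in ST5, 6.79, 6.74 and 6.63 in ES and 7.10, 7.24 and 7.10 in ST8, so the 3 lines did not overlap.

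Cdk6, Ccnd1 and Cdkn1b were lower in ST5 than in ES at day 5. The differences were -2.63 ± 0.56 for Cdk6 (limma, adjusted p = 0.0046), -1.29 ± 0.33 for Ccnd1 (adjusted p = 0.0131) and -0.45 ± 0.12 for Cdkn1b (adjusted p = 0.0134). The Ccnd1 call did not hold when ES day 5 replicate 2 or 3 or ST5 day 5 replicate 1 was left out (adjusted p = 0.0635, 0.0629 and 0.0521). For Cdkn1b the same was so of ES day 5 replicate 2 or 3 and ST5 day 5 replicate 3 (adjusted p = 0.0617, 0.055 and 0.0503). Without the arrays that stand apart 5 genes were called higher and 20 lower, and the differences were -3.18, -1.54 and -0.504.

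Between ST8 and ES at day 5, 1 gene was called by limma, against 0.958% of all genes, and 7 had an unadjusted p under 0.05. It was Orc1, higher in ST8 by 0.43 ± 0.07 (adjusted p = 0.00879), and it was not called when ES day 5 replicate 3 was left out (adjusted p = 0.0618), which left 0 genes called. The count was 2 without ES day 5 replicate 1 or ST8 day 5 replicate 3, and 5 without ST8 day 5 replicate 2. Between ST8 and ST5 at day 5, 11 genes were called higher in ST8 and 4 lower, against 8.29% and 6.3% of all genes, and with a common median 7 and 5. Cdk6 was higher in ST8 by 2.18 ± 0.56 (adjusted p = 0.0185), Ccnd1 by 1.35 ± 0.33 (adjusted p = 0.0158) and Cdkn1b by 0.53 ± 0.12 (adjusted p = 0.00928). Lower in ST8 were Ccne2 (-0.72), Orc1 (-0.27), Tyms (-0.23), the thymidylate synthase, and Mcm4 (-0.18). These 4 of 46 are close to the 6.3% of all genes. At day 5 Tyms read 8.46, 8.50 and 8.33 in ST8 and 8.71, 8.68 and 8.60 in ST5.

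Many calls between ST8 and ST5 were lost when 1 day 5 array was left out. The Cdk6 difference, 2.18 with all arrays, was 2.22, 2.16 and 2.16 without ST5 replicate 1, 2 or 3. It was 1.74 and 1.67 without ST8 replicate 1 or 3. Leaving out any 1 array but ST8 replicate 2 ended the calls of Cdk6 (adjusted p from 0.0522 to 0.119), Orc1 (from 0.0599 to 0.126), Tyms (from 0.0586 to 0.195) and Mcm4 (from 0.0578 to 0.186). Ccnd1 was not called when ST5 replicate 1 or ST8 replicate 1 or 3 was left out (adjusted p = 0.0617, 0.0978 and 0.104), nor Cdkn1b without ST8 replicate 1 or 3 (adjusted p = 0.0606 and 0.0644), while Ccne2 was called in all 6 of these fits. Leaving out ST5 day 5 replicate 1, 2 or 3 left 6, 7 and 6 genes called, leaving out ST8 day 5 replicate 1 or 3 left 3, and leaving out ST8 day 5 replicate 2, the array that stands apart, gave 25. With the 2 groups fitted alone 0 were called. The comparisons of the lines share groups, so they are not independent of each other. At day 5 the mean level of the 8 pluripotency genes was 6.35 to 6.90 in ES, 5.77 to 5.90 in ST5 and 5.76 to 7.03 in ST8, and the part of this in the line differences was not tested.

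The change from day 0 to day 5 was then compared between the lines by the difference of the differences. It was called for 3 genes between ST5 and ES (limma), against 5.58% of all genes, with 12 at an unadjusted p under 0.05. All 3 act in licensing, as do 13 of the 46 genes, and 3 of 46 is close to the share of all genes. For Mcm4, ST5 minus ES, it was 0.37 ± 0.08 (adjusted p = 0.0171), reading 9.86, 9.79 and 9.85 at day 0 and 9.495, 9.46 and 9.33 at day 5 in ES but 9.79, 9.82 and 9.81 at day 0 and 9.71, 9.79 and 9.82 at day 5 in ST5. Cdc6, which works with Cdt1, differed by 0.43 ± 0.10 (adjusted p = 0.0203), reading 8.64, 8.62 and 8.61 at day 0 and 8.22, 8.27 and 8.12 at day 5 in ES but 8.52, 8.47 and 8.505 at day 0 and 8.41, 8.60 and 8.504 at day 5 in ST5. Both fell in ES without overlap and overlapped between the days in ST5. Orc1 differed by 0.43 ± 0.11 (adjusted p = 0.0269): it fell from 7.80, 7.52 and 7.73 to 6.79, 6.74 and 6.63 in ES and from 7.91, 7.92 and 7.997 to 7.45, 7.39 and 7.41 in ST5.

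Leaving out ES day 5 replicate 3 left 0 calls (adjusted p = 0.0521 for Mcm4), leaving out ES day 0 replicate 1 or ST5 day 0 replicate 2 left 1, and leaving out ES day 5 replicate 1 gave 9. Mcm4 was called in each of the other 11 fits with 1 array left out. Cdc6 was also lost without ST5 day 5 replicate 2 (adjusted p = 0.0537), and Orc1 also without ES day 0 replicate 3, ES day 5 replicate 2, or ST5 day 5 replicate 1 or 3 (adjusted p from 0.0565 to 0.0725). Between ST8 and ES 0 genes were called by limma, against 0.838% of all genes, with 4 at an unadjusted p under 0.05, and 1 was called without ES day 5 replicate 1 or without ST8 day 5 replicate 2. Between ST8 and ST5 0 were called, against 2.17% of all genes, with 16 at an unadjusted p under 0.05, and 16 were called without ST8 day 5 replicate 2. For Cdk6 the response difference between ST8 and ST5 was 2.09 (adjusted p = 0.146), and 3.04 (adjusted p = 4.11e-11) without the arrays that stand apart.

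In the embryo, foregut endoderm was compared with the ENDM1-negative Epcam+ cells of the same stage. Of 46 genes 9 were called lower in foregut and 1 higher (limma), against 4.43% and 3.71% of all genes, and the median difference was -0.21. That median was -0.24 with every array set to a common median and -0.18 after a further quantile normalization. Those called lower were the licensing genes Orc1, Mcm10, Mcm2 and Mcm7, the mitotic kinases Aurkb, Cdk1, Plk1 and Aurka, and Ccne1, and no enzyme of DNA synthesis was called. Orc1 read 7.55, 7.65 and 7.65 in foregut and 8.21, 8.26 and 8.13 in ENDM1-negative cells, a difference of -0.58 ± 0.08 (adjusted p = 0.000622). Aurkb, the Aurora kinase of the chromosomal passenger complex, read 8.47, 8.35 and 8.36 in foregut and 8.76, 8.86 and 8.86 in ENDM1-negative cells, a difference of -0.44 ± 0.09 (adjusted p = 0.0122). For Ccne1 the arrays read 8.53, 8.45 and 8.46 in foregut and 8.85, 8.81 and 8.96 in ENDM1-negative cells, a difference of -0.39 ± 0.08 (adjusted p = 0.00792). None of the 3 overlapped between the populations, and all 3 were called in each of the 6 fits that left out 1 embryo array. In those 6 fits the calls of Plk1 and Aurka were lost each time (adjusted p from 0.06 to 0.0901 for Plk1 and from 0.061 to 0.155 for Aurka). The call of Mcm7 was lost in 5 of the fits, those of Mcm2 and Cdk1 in 4 and that of Mcm10 in 3.

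Gins2 was the member called higher in foregut, at 9.64, 9.64 and 9.68 against 9.38, 9.30 and 9.46, a difference of 0.27 ± 0.08 (limma, adjusted p = 0.0458). That call, too, was lost in each of the 6 fits (adjusted p from 0.0516 to 0.14) and with a common median (adjusted p = 0.0804). The count called was 7, 4 and 3 without ENDM1-negative replicate 1, 2 or 3, and 4, 5 and 5 without foregut replicate 1, 2 or 3, while with all 30 arrays in 1 fit it was 20. Markers of other cell types moved with this comparison. Of 7 endothelial genes 5 were called lower in foregut (mean level 5.09 to 5.20, against 6.23 to 6.84), of 8 neural and surface ectoderm genes 5 lower (5.88 to 6.11, against 7.11 to 7.48), and of 6 visceral endoderm genes 5 higher (8.38 to 9.62, against 6.11 to 6.81). Their part in the differences was not tested.

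**Figure D4:**
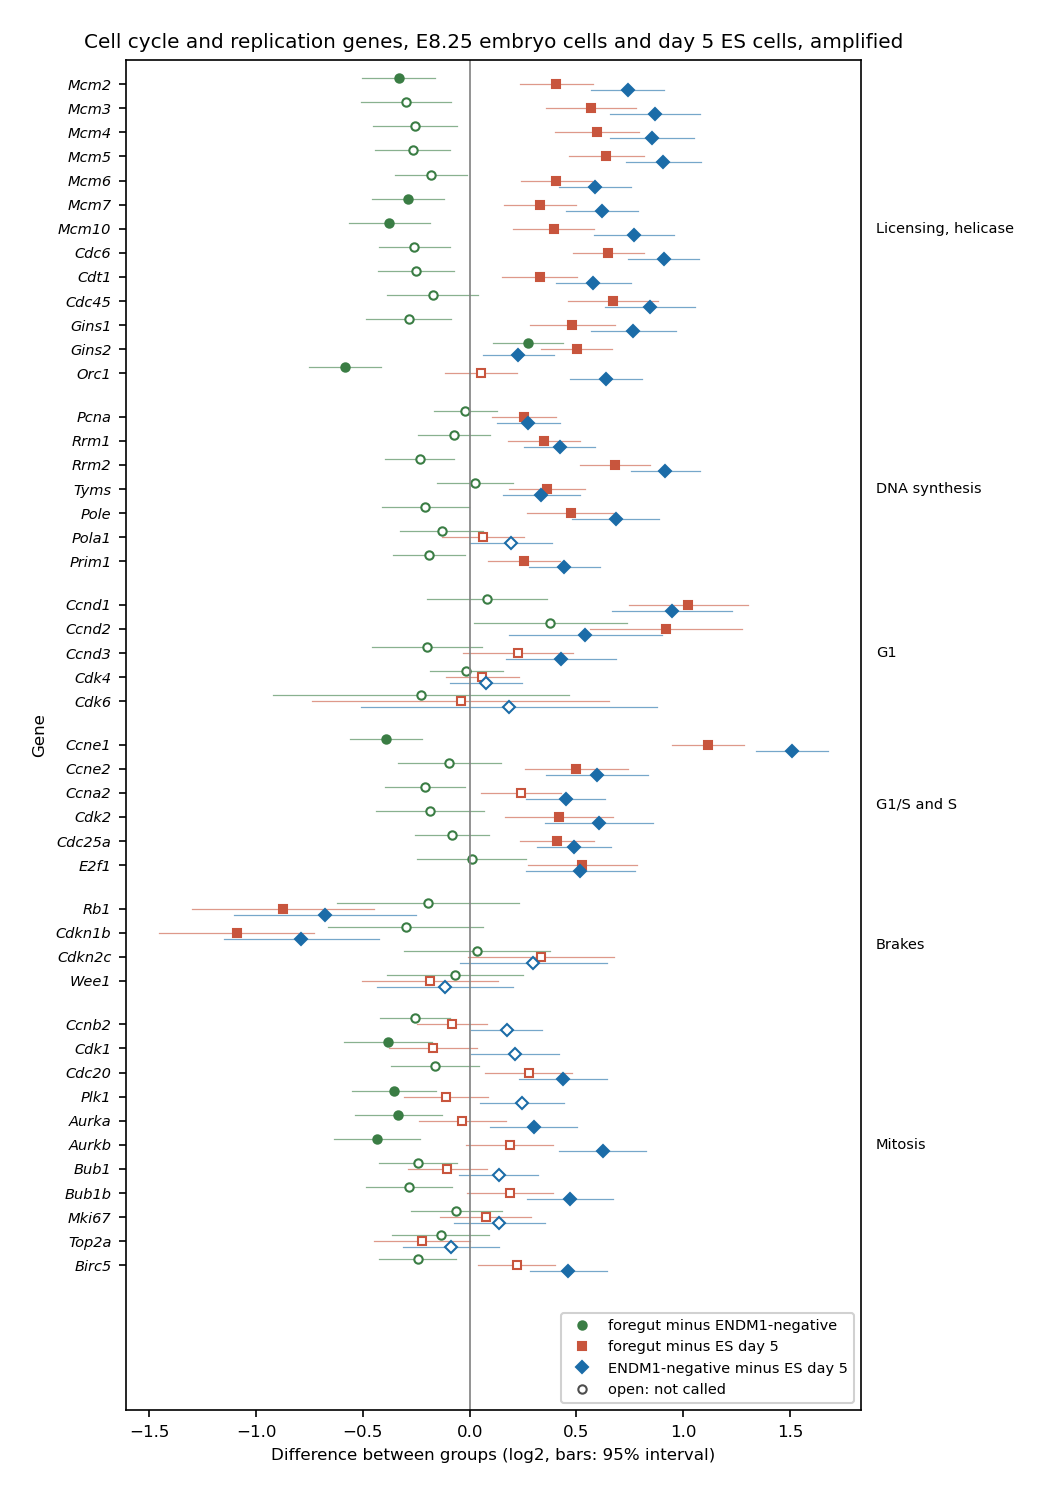
Differences (x axis, log2) of the 46 genes between foregut and ENDM1-negative cells of E8.25 embryos, and of each of these against ES cells at day 5, all on amplified RNA; points are estimates from 3 arrays against 3, bars 95% intervals, and open points were not called. Licensing genes are right of 0 in both embryo populations against ES cells, with 12 and 13 of 13 called, while foregut against ES has 0 of 11 mitosis genes called.

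Against ES cells at day 5, foregut cells had higher levels of most of the replication genes among the 46, while no mitosis gene among them passed the test. Of 46 genes 25 were called higher in foregut and 2 lower (limma), against 14.7% and 9.42% of all genes. By role, 12 of 13 licensing genes, 6 of 7 enzymes of DNA synthesis and 5 of 6 genes of S phase entry were higher, but 0 of 11 mitosis genes were called in either direction, with a median of -0.03. Without the ES array that stands apart 1 of these mitosis genes, Birc5, was called, higher in foregut by 0.27 (adjusted p = 0.0429), against 0.22 with that array. Top2a was called lower by its other, dimmer probe set (-0.67, limma, adjusted p = 0.0472). Of 42 further replication genes, not among the 47, 18 to 22 were called higher and 1 to 3 lower with 1 array left out. Of 45 further mitosis genes 5 to 7 were higher and 4 to 9 lower in those fits. With all arrays Mybl2 (1.02) was higher and Aspm (-0.72) lower. Ccne1 read 8.53, 8.45 and 8.46 in foregut and 7.34, 7.33 and 7.43 in ES at day 5, a difference of 1.12 ± 0.08 (adjusted p = 1.12e-06). Ccnd1 read 8.40, 8.32 and 8.53 in foregut and 7.08, 7.55 and 7.55 in ES at day 5, a difference of 1.02 ± 0.13 (adjusted p = 0.000144). Ccnd2 read 10.04, 9.87 and 9.98 in foregut and 8.69, 9.18 and 9.25 in ES at day 5, a difference of 0.92 ± 0.17 (adjusted p = 0.00165). The foregut arrays were above the ES arrays for all 3 cyclins.

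The 2 genes called lower in foregut than in ES at day 5 were the brakes Cdkn1b and Rb1. As a share of the 46 they are below the 9.42% of all genes. The brakes Wee1 and Cdkn2c were not called. Of 28 further G1 regulators and brakes, 5 to 6 were called higher and 4 to 8 lower with 1 array left out. With all arrays the inhibitor Cdkn1c (1.68) was higher and Ccng1 (-1.85) lower. Cdkn1b read 6.81, 6.76 and 7.05 in foregut and 7.68, 8.01 and 8.20 in ES at day 5, a difference of -1.09 ± 0.17 (limma, adjusted p = 0.000572). Rb1 read 6.52, 6.39 and 6.56 in foregut and 6.77, 7.63 and 7.69 in ES at day 5, a difference of -0.87 ± 0.20 (adjusted p = 0.0066). The arrays of neither gene overlapped. Without the ES array that stands apart the differences were -1.23 and -1.17, and Cdk6, at -0.04 with it, was -0.57 and called (adjusted p = 0.01).

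The ENDM1-negative cells were compared with ES cells at day 5 as well. Of 46 genes 33 were called higher and 2 lower (limma), against 16.5% and 9.76% of all genes, with 13 of 13 licensing genes, 6 of 7 of DNA synthesis, 6 of 6 of S phase entry and 5 of 11 of mitosis higher. Without the ES array that stands apart the calls of Gins2, Ccnd2, Ccnd3 and Aurka were lost (adjusted p = 0.117, 0.0997, 0.0502 and 0.0571). Orc1 was higher by 0.64 in ENDM1-negative cells and differed by 0.05 in foregut. Against undifferentiated ES cells at day 0, foregut had 7 genes called higher and 19 lower, against 18.2% and 14.2% of all genes. The 7 higher of 46 are a smaller share than the 18.2%. The lower ones included 9 of 11 mitosis genes, such as Aurka (-0.67), and Orc1 (-0.73), and the higher ones Ccnd2 (1.56), Ccne2 (0.81) and Cdk4 (0.47). These comparisons share the foregut or the ES arrays. Markers of other cell types moved with each of the 3 comparisons. In foregut against ES at day 5, all 6 visceral endoderm genes were called higher (mean level 8.38 to 9.62, against 6.38 to 6.99) and 2 of 6 blood genes (6.42 to 6.55, against 5.22 to 5.43). In ENDM1-negative cells against ES at day 5, 6 of 7 endothelial genes were called higher and 1 lower (6.23 to 6.84, against 4.95 to 5.17). The 8 neural and surface ectoderm genes had 6 higher and 1 lower there (7.11 to 7.48, against 5.99 to 6.07), and the 6 blood genes 3 higher and 1 lower (6.12 to 6.41, against 5.22 to 5.43). In foregut against ES at day 0, 6 of 9 fibroblast genes were called lower and 1 higher (5.45 to 5.58, against 6.57 to 6.78), and 5 of 6 visceral endoderm genes higher (8.38 to 9.62, against 5.18 to 5.49). The part of these cells in the differences was not tested. Embryo and ES cells also differ in strain, RNA kit and source, so these cannot be told apart from the cell type.

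**Figure D5:**
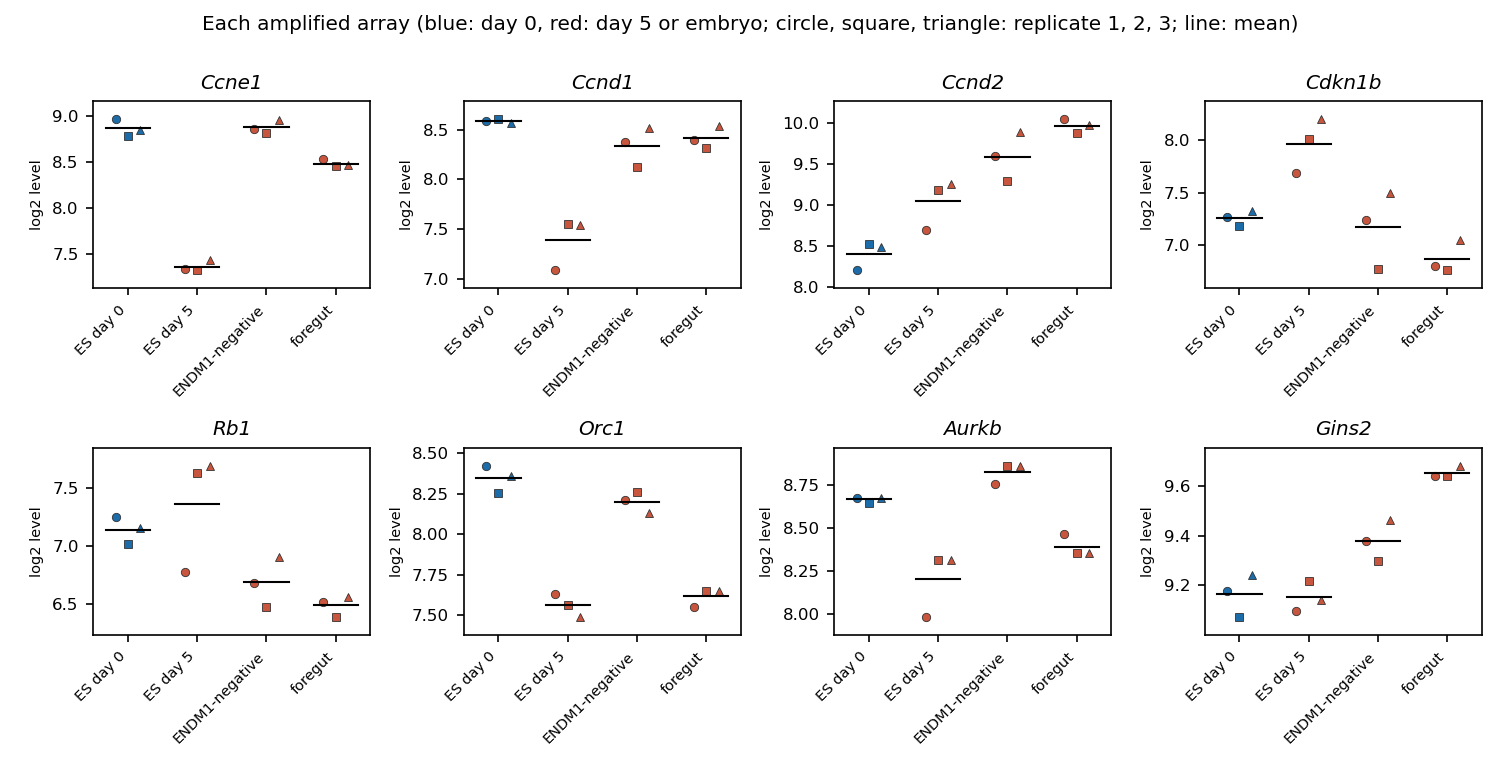
Level (y axis, log2) of cell cycle and replication genes on each of the 12 amplified arrays, day 0 ES cells in blue and day 5 ES, ENDM1-negative and foregut cells in red; circles, squares and triangles are replicates 1, 2 and 3 and lines are group means. Ccne1 is lowest in ES cells at day 5 (7.33 to 7.43), Orc1 is low in ES cells at day 5 and in foregut, and Cdkn1b is highest in ES cells at day 5.

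Other genes of the same pathways, listed by function and not among the 47, were counted as well. Of 42 further replication genes 36 were called lower in ES at day 5, 32 in ST5, 30 in ST8 and 28 in amplified ES, where 19.7%, 24.8%, 19.5% and 13.8% of all genes were. Only ST5 had any called higher (limma), 2, Cdc7 (0.42) and Orc4 (0.23). Ticrr, which helps load Cdc45, had a difference of -1.12 in ES and -0.85 in ST8, and Rpa1, of the single-strand binding protein, -1.19 in ST5. Of 45 further mitosis genes 37, 39, 35 and 31 were called lower in the same order, against the same shares of all genes, and 1, Pttg1 (0.58, ST8), was called higher. Mybl2, a transcription factor that works with the MuvB complex on mitosis genes, had a difference of -2.63 in ES, -2.21 in ST5, -2.56 in ST8 and -2.41 in amplified ES, and it read 10.38, 10.19 and 10.20 in ES at day 0 and 7.78, 7.497 and 7.59 at day 5. No array of Mybl2 overlapped between the days in ES.

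Of the 28 further G1 regulators and brakes, 6 were called higher and 11 lower in ES at day 5, 8 and 11 in ST5, 5 and 12 in ST8, and 6 and 7 in amplified ES (limma). The share called higher was 21.4% in ES, 28.6% in ST5 and 17.9% in ST8, near the 18.9%, 23.2% and 21% of all genes, and 21.4% in amplified ES, against 13%. The share called lower was 39.3%, 39.3%, 42.9% and 25%, against 19.7%, 24.8%, 19.5% and 13.8% of all genes. Without ES day 0 replicate 1 the count called higher in ES was 3. Cdkn1c, the inhibitor p57, was higher by 1.72, 1.57 and 1.40, and Ccng2, a cyclin linked to arrest, by 1.28, 1.78 and 1.32. Mycn, the N-Myc factor, differed by -2.05, -2.78 and -1.98, and E2f8, a repressor of the E2F family, by -1.29, -1.21 and -1.12.

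Cdkn2a and Cdkn2b, which encode inhibitors of Cdk4 and Cdk6, differed between the lines at day 5. Cdkn2b read 8.57, 8.57 and 8.58 in ST5, 7.67, 6.31 and 6.68 in ES and 6.92, 8.18 and 6.80 in ST8. Cdkn2a read 7.59, 7.29 and 7.21 in ST5, 6.497, 5.53 and 5.46 in ES and 5.62, 6.74 and 5.65 in ST8. Within ES and ST8 the arrays that stand apart had the highest levels of both. ST5 was above ES by 1.68 ± 0.31 for Cdkn2b (limma, adjusted p = 0.00197) and by 1.53 ± 0.27 for Cdkn2a (adjusted p = 0.00156). Without the arrays that stand apart these differences were 2.07 and 1.87.

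In foregut against ENDM1-negative cells 10 of 42 further replication genes and 10 of 45 further mitosis genes were called lower and 0 of either higher (limma), where 4.43% of all genes were called lower and 3.71% higher. With 1 embryo array left out the replication count ran from 1, without ENDM1-negative replicate 1, to 8, without ENDM1-negative replicate 2. The mitosis count ran from 4, without foregut replicate 1, to 14, without foregut replicate 2. The falls at the top of each list were Orc2 (-0.41) and Rpa1 (-0.40) for replication, and Nek2 (-0.56) and Espl1 (-0.43) for mitosis. Of the 28 G1 regulators and brakes, Cdkn1c was the 1 called higher, by 1.48 ± 0.12 (adjusted p = 8.68e-06), at 9.57, 9.76 and 9.34 in foregut and 7.93, 8.22 and 8.09 in ENDM1-negative cells, without overlap. The Myc factors Myc (-0.81) and Mycn (-0.64) were lower. The calls of Rpa1 and Myc were each lost in 5 of the 6 fits that left out 1 array, while Orc2, Nek2, Espl1, Cdkn1c and Mycn were called in all 6.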

How the data were processed

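RNA from 30 samples was hybridised to Affymetrix Mouse Gene 1.0 ST arrays. The authors deposited log2 values normalized with RMA, per the submitters' processing notes; whether all arrays were normalized together is not given in the sources used here. Of 35556 probe sets, 21789 named 1 gene in the platform annotation, 1621 several and 12146 none, and the probe set with the highest mean over all arrays stood for each of 19938 genes. The 47 genes and all lists were chosen with earlier results of these data known.

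Group means were fitted with limma 3.58.1 (R 4.3.3, data.table, version 1.17.8), separately for each labelling: 18 unamplified arrays in 6 groups, which leaves 12 degrees of freedom for the spread, and 12 amplified arrays in 4 groups, which leaves 8. P-values were adjusted by Benjamini-Hochberg over 19938 genes for each of 17 contrasts and called under 0.05. On simulated data 76% of genes shifted by 0.5 were recovered in the ES contrast and 64% in foregut against ENDM1-negative. With 3 arrays a group, the number of arrays limits the precision.

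Named with every array's value were the 6 members with the largest mean fall and up to 4 with the largest rise among those called in all 3 lines, the D cyclins and Cdk6, the 3 called members with the smallest adjusted p in a response difference, and up to 3 called rises and falls in the other comparisons. Of each pathway list up to 2 called rises and falls a contrast were named. Ccne2, Rb1 and Mki67 were also shown by array at day 5 against day 0, after their values were seen. Alternatives were other scalings, filters, probe set rules and fits, and leaving out each array. Promoter windows and RefSeq names came from build GRCm38.p6; motifs were counted by letter.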

Additional observations from a re-analysis of the deposited data

Results flagged for a closer look

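The change from day 0 to day 5 differed between ST5 and ES, by a test of the difference itself, at 3 of the genes. Mcm4 differed by 0.37, having fallen in ES by 0.40 and moved by -0.03 in ST5. Cdc6 differed by 0.43, with -0.42 in ES and 0.01 in ST5. Orc1 differed by 0.43, with -0.96 in ES and -0.53 in ST5. The share of all genes with a called response difference was 5.58%, and 3 of 46 is close to it.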

How the results depend on the processing

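Among the measured cell cycle and replication genes, no value called in the main fit changed sign under another setting or with 1 array left out. Sign changes of the further pathway and marker genes were not counted. Values that were not called could turn, as Rb1 did in ES without the arrays that stand apart. With 1 array left out the counts called ran from 37 to 39 in ES, 37 to 39 in ST5, 29 to 38 in ST8 and 29 to 33 in amplified ES. At day 0 they ran from 0 to 0 for ST5 and ES, 0 to 1 for ST8 and ES and 0 to 0 for ST8 and ST5, and at day 5 from 7 to 21, 0 to 5 and 3 to 25. For the response differences they ran from 0 to 9 (ST5 and ES), 0 to 1 (ST8 and ES) and 0 to 16 (ST8 and ST5), and in the embryo comparisons from 3 to 7 (foregut and ENDM1-negative), 24 to 29 (foregut and ES day 5), 20 to 24 (foregut and ES day 0) and 31 to 33 (ENDM1-negative and ES day 5).

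With all 30 arrays in 1 fit the counts were 1 for ST5 and ES at day 0, 2 for ST8 and ES at day 0, 5 for the response difference of ST5 and ES, 1 for that of ST8 and ST5, and 20 for foregut and ENDM1-negative. With the 3 arrays that stand apart left out together, chosen after seeing the data, they were 2 and 2 for ST5 and ST8 against ES at day 0, 25, 5 and 27 for ST5 and ES, ST8 and ES, and ST8 and ST5 at day 5, and 16, 3 and 22 for their response differences. With dim genes left out they were 1 and 2 at day 0 for ST5 and ST8 against ES, 5 for the response difference of ST5 and ES, 3 for that of ST8 and ST5, and 18 for foregut and ENDM1-negative. Fitting only the groups of a contrast gave 3 for ST8 and ES at day 0, 0 for ST8 and ES and 0 for ST8 and ST5 at day 5, 6 for the response difference of ST5 and ES, and 5 for foregut and ENDM1-negative. An intensity trend with robust spread gave 2 for ST8 and ES at day 0 and 18 for foregut and ENDM1-negative, a common median gave 5 for the response difference of ST5 and ES, and a further quantile normalization gave 1 for ST5 and ES at day 0. The cause of these changes was not tested, apart from the fewer arrays or genes that an alternative uses by construction.

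Within each labelling, replicate numbers did not pair the arrays. Same-numbered unamplified arrays correlated from -0.65 to 0.50 in their deviations. Of the unamplified arrays 5 of 18 were closest to their own number, and 3 of 12 amplified ones were. Pairing between the labellings was not examined. With a replicate block 39, 39 and 35 genes were called in ES, ST5 and ST8, 33 in amplified ES and 6 in foregut against ENDM1-negative.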
